A study of Drosophila melanogaster with 8 samples.

Results

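Sites of the transcription factor Ribbon (Rib) were described at 8 genes of the proneural system of Drosophila melanogaster. The genes are the proneural genes achaete (ac), scute (sc), lethal of scute (l(1)sc), asense (ase), atonal (ato) and amos, the partner gene daughterless (da) and the inhibitor gene extramacrochaetae (emc). They are 8 of the 13922 protein-coding genes on the 6 chromosome arms. The set was chosen by family, with measured values in view: sc was picked first because it held a strong peak in 1 list and none in the other lists. The values below are therefore descriptions and carry no test.

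Embryos expressed Rib fused to green fluorescent protein (GFP) from a UAS transgene, and fragments bound by the fusion were recovered with a goat antibody to GFP and sequenced (ChIP-seq). The immunoprecipitated samples were 3 with the btl-GAL4 driver and 2 with the trh-GAL4 driver, and 2 btl samples and 1 trh sample were input chromatin. All were whole embryos, stage 11 to 15 in the sample labels and up to stage 16 in the protocol, and chromatin of several collections was combined. Titles and genotypes read UAS-GFP, but the protocol, like the file descriptions, reads UAS-rib-GFP. The protocol was followed, and if the titles are right no value here concerns Rib. GAL4 drives the transgene where the breathless (btl) or trachealess (trh) promoter fragments of the drivers are active, chiefly the trachea, so the fusion is present in some cells of the embryo, in addition to the endogenous protein. A peak in such chromatin cannot tell apart few cells with high occupancy and many cells with low occupancy. No antibody control from embryos that lack GFP was used here.

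Proneural proteins are basic helix-loop-helix (bHLH) transcription factors that give ectodermal cells the competence to become neural precursors. They bind E-box DNA as heterodimers with Daughterless, a broadly expressed bHLH protein, and Extramacrochaetae, which has the helix-loop-helix but no basic region, forms dimers that do not bind DNA. Notch signalling then limits proneural expression to single cells of each cluster. The achaete-scute complex, which holds ac, sc, l(1)sc and ase, is known for large intergenic regions whose enhancers are shared between its genes. Rib is a BTB-domain factor needed for the shaping of the trachea and the salivary glands.

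Each value comes from 1 of 3 peak lists. The btl list (8693 regions) and the trh list (3210 regions) were each made from replicates 1 and 2 of the driver, and the replicate 3 list (10205 regions on the arms, with 17149 summits) from btl replicate 3 alone. Replicate 3 also had another library kit and another sequencing centre, so replicate and batch cannot be told apart. Each peak carries the authors' fold enrichment over background at its summit, on a linear scale, and its median was 2.87 over the btl summits, 2.16 over the trh summits and 2.39 over those of replicate 3. A percentile below is the share of the same list's summits with a fold at or below the value. The btl and trh lists give 1 value for both replicates and the third list 1 value for 1 replicate, so no value has a replicate error. Read depth is unknown, and a gene without a peak is only one that did not enter a list at the authors' threshold. A gene was counted where a summit lay in its body or within 5 kb of it. The farthest summit counted was 3758 bp from its gene (da, replicate 3), and the nearest not counted was 7409 bp from its gene (also da, replicate 3).

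Of the 8 genes, 4 had a summit in the btl list, namely sc, l(1)sc, da and emc. The share over all protein-coding genes was 60.9%. In the trh list 1 of the 8 had a summit, da, where 29.1% of all genes did. In the replicate 3 list 3 of the 8 had one, l(1)sc, da and emc, where 65.7% of all genes did. Only da had a summit in all 3 lists, as did 25.0% of all genes. A summit in none of the lists was the case for 4 of the 8, ac, ase, ato and amos, against 26.8% of all genes. With this window the count in each list lay below the background. The btl count did not with narrower rules, being 4 of 8 (50%) against 45.5% of all genes within 2 kb, and 3 of 8 (37.5%) against 26.7% within 500 bp of a gene end. It was also 37.5% against 28.2% with the list shortened to the number of trh summits. In the upper 50% of the list it was 37.5% against 36% by fold and 37.5% against 40.3% by -log10 q. The 8 genes are short, with a median length of 1330 bp against 2163 bp over all protein-coding genes, and genes with a summit in no list had a median of 1445 bp.

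**Figure D1:**
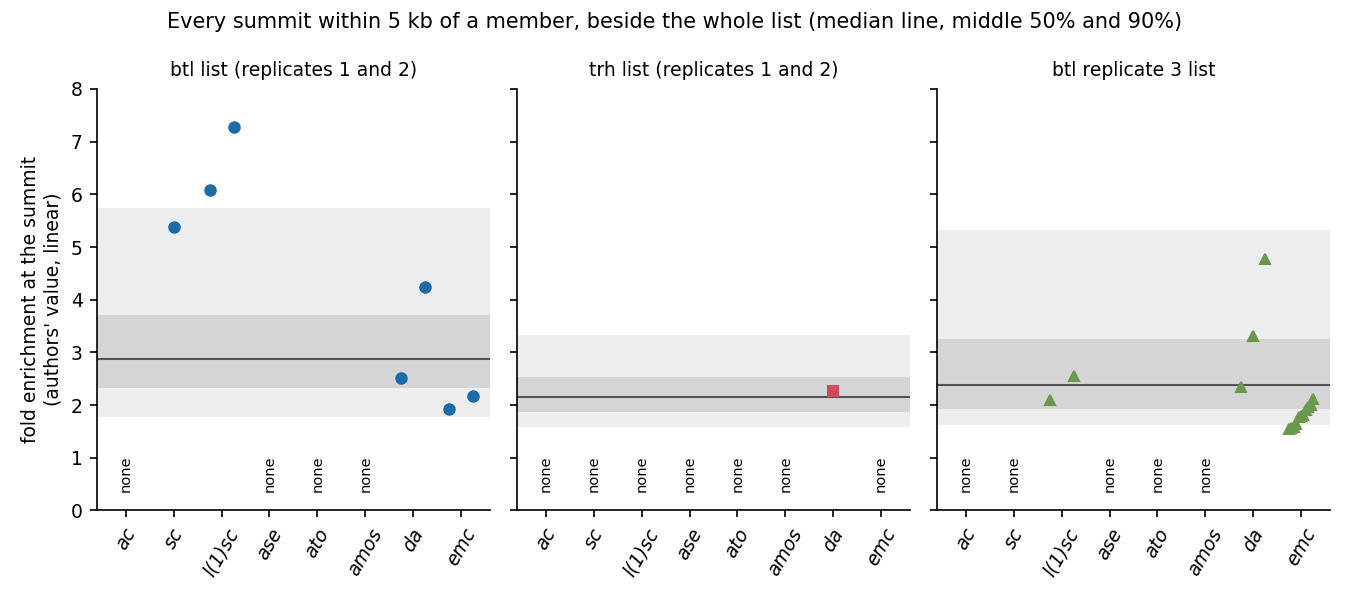
Fold enrichment (authors' value, linear axis) of every summit within 5 kb of each of the 8 genes, with 1 panel per peak list; the line is the median of the whole list and the darker and lighter bands hold the middle 50% and 90% of its summits. In the btl panel sc and l(1)sc lie from 5.38 to 7.28 and emc from 1.93 to 2.18, while in the replicate 3 panel l(1)sc lies at 2.09 and 2.56.

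Scute, which gives competence for external sensory organs, lies on chromosome X from 396060 to 397497 on Release 6 (Dmel_CG3827). It had 1 peak, in the btl list. The region ran from 395557 to 396379, a width of 823 bp of which 320 bp lay in the gene. Its summit at 395923 was 137 bp outside the lower-coordinate end of the gene, and the nearest end of another coding gene, that of l(1)sc, was 13798 bp away. The fold was 5.38, rank 600 of 8693 (percentile 93.1), and the -log10 q was 42.3 (percentile 78.4). No trh or replicate 3 region overlapped it. The nearest trh summit was 27682 bp away and the nearest replicate 3 summit 11231 bp away, so neither list had a weaker peak beside the gene.

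Strong btl peaks were rarely alone in this way. The btl list held 600 regions with a fold at or above that of sc, and 593 of them (98.8%) overlapped a replicate 3 region and 319 (53.2%) a trh region. Those that overlapped neither were 3 in number (0.5%), the one at sc and 2 others. These were a region on X with its summit at 2419734 and a fold of 7.51, 5191 bp from the nearest coding gene end, that of CG32797, and a region on 2R with its summit at 14543407 and a fold of 5.79, 743 bp from an end of CG30076. A summit within 5 kb in the btl list and in neither other list was found at 1 of the 8 genes and at 5.0% of all genes. Since sc entered the set for this pattern, its place among the 3 describes how it was chosen.

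Lethal of scute, the main proneural gene of the embryonic neuroblasts, lies on X from 409721 to 410817 (Dmel_CG3839). It had 2 btl peaks, the strongest at any of the 8 genes. The summit at 407199 lay 2522 bp on the lower-coordinate side of the gene with a fold of 7.28, rank 114 of 8693 (percentile 98.7) and a -log10 q of 73.7. The summit at 409023 lay 698 bp on the same side with a fold of 6.09, rank 317 (percentile 96.4) and a -log10 q of 53.0. Both regions were wider than the btl median of 692 bp, with 1201 bp and 1011 bp, and the nearer one reached 23 bp into the gene.

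Both l(1)sc sites were found again in replicate 3, at nearly the same bases and much lower in the list. The replicate 3 summits were at 407154 and 409077, 45 and 54 bp from the btl summits. Over all 6985 btl regions that overlapped replicate 3, this distance had a median of 71 bp and quartiles of 33 and 130 bp. The replicate 3 folds were 2.56 (percentile 56.9) and 2.09 (percentile 35.5). For the 852 btl regions at or above percentile 90 by fold that overlapped replicate 3, the highest overlapping replicate 3 percentile was taken. Its median was 80.5 and its lower quartile 66.7. Each l(1)sc region of replicate 3 had 1 summit, so a single value was set against the highest of 1 or more. The higher l(1)sc value was at or above 15.3% of these regions and the lower one at or above 4.11%. Folds of the lists are not on a shared scale, so only the places within each list are set side by side. No trh region overlapped either site. Of the 319 btl regions at least as strong as the weaker l(1)sc peak, 187 (58.6%) overlapped a trh region and 131 (41.1%) overlapped replicate 3 without trh, as both l(1)sc peaks did.

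The other 2 genes of the complex had no summit within 5 kb in any list. Achaete, which acts with scute in external sensory organs, lies on X from 370031 to 370947 (Dmel_CG3796). Its nearest btl summit was 8447 bp away, and the nearest trh and replicate 3 summits were 29709 and 26893 bp away. The btl summit, at 361584 with a fold of 3.71 (percentile 74.9), lay 339 bp from an end of yellow (y), the cuticle pigment gene beside the complex. Asense, which is expressed in neural precursors, lies on X from 460747 to 463176 (Dmel_CG3258). No list had a summit closer to it than 18590 bp, the distance of a btl summit with a fold of 2.72.

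Across the complex as a whole the 3 strongest peaks of the btl list lay beside sc and l(1)sc. The interval from y to Cyp4g1 (X, 356509 to 469335, 113 kb) was chosen after the values were seen. It held 5 btl, 1 trh and 2 replicate 3 summits, or 4.43, 0.886 and 1.77 per 100 kb. Over the 5 kb windows of all protein-coding genes the densities were 7.26, 2.75 and 14.5 per 100 kb. The whole complex lies in the span of CG32816 (X, 316576 to 470726), so every one of these summits inside the complex is also inside that annotated gene. The trh summit was at 423605 with a fold of 2.22 (percentile 54.1), and a btl summit at 423609 with a fold of 2.09 (percentile 15.1) matched it. This site was 12788 bp from l(1)sc and 12534 bp from Pgcl. Of the 5 btl peaks of the interval the weakest alone had a trh partner, while 25.2% of all btl regions overlapped a trh region. By fold, that share was 24.1% in the lowest decile of the btl list and 49.2% in the highest. In the second-lowest decile, which holds this weakest peak, it was 17.4%.

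**Figure D2:**
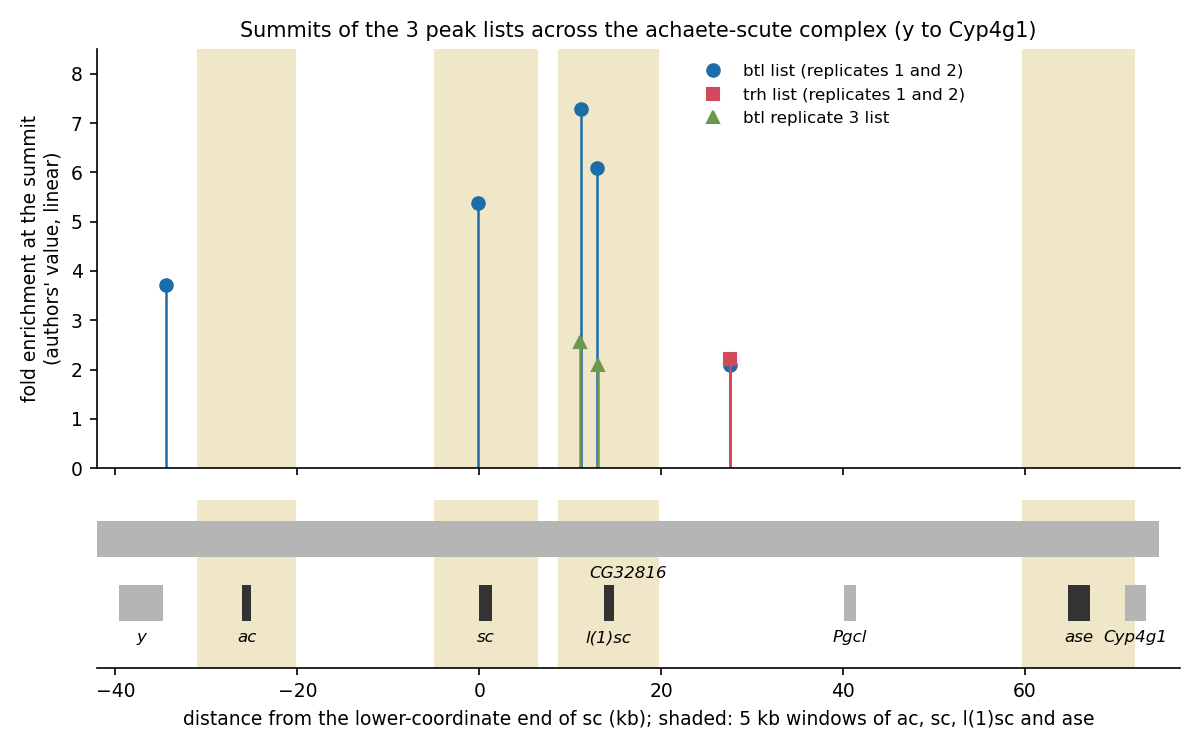
Summits of the btl, trh and replicate 3 lists across the achaete-scute complex; the horizontal axis is the distance in kb from the lower-coordinate end of sc, stem height is the authors' fold enrichment (linear), and dark boxes are ac, sc, l(1)sc and ase with their 5 kb windows shaded. The 3 highest btl stems are 5.38 at sc and 7.28 and 6.09 beside l(1)sc. Folds of different lists are not on a shared scale. The span of CG32816 runs past the left edge.

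The proneural genes outside the complex had no peaks. Atonal, which specifies chordotonal organs and founder photoreceptors, lies on 3R from 8278052 to 8279274 (Dmel_CG7508), with no other coding gene within 5 kb. Its nearest summits were 21454 bp away in the btl list, 37675 bp in the trh list and 12965 bp in the replicate 3 list. The gene amos, which acts in olfactory sensilla and some multidendritic neurons, lies on 2L from 18596136 to 18596921 (Dmel_CG10393). Its nearest summits were 20367 bp (btl), 20357 bp (trh) and 19950 bp (replicate 3) away. Its 2 coding neighbours within the window, CG15160 and CG10413, had no summit by the same rule.

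Daughterless, the common dimer partner, was the only gene of the set with a summit in all 3 lists, and the shared site lay at its neighbours. The gene lies on 2L from 10388105 to 10393228 (Dmel_CG5102). At its own lower-coordinate end, the btl list had a summit at 10388162, 57 bp inside the gene, with a fold of 2.51 (percentile 34.5). Replicate 3 had a summit at 10388590, 485 bp inside, with a fold of 2.34 (percentile 48.0). The regions overlapped and the summits were 428 bp apart, farther than the upper quartile of 130 bp over all overlapping regions. The trh list had no peak there. An end of mRpS7, a mitochondrial ribosomal protein gene, was 510 bp from the btl summit.

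The other da site lay beyond the upper-coordinate end of the gene, at the border of Mdh1, which encodes a malate dehydrogenase, and Cnot4. The btl summit at 10396268 had a fold of 4.24 (rank 1441, percentile 83.4) and was 3040 bp from da and 64 bp from an end of Mdh1. The trh summit at 10396808 had a fold of 2.26 (rank 1357 of 3210, percentile 57.8), and was 3580 bp from da and 92 bp from an end of Cnot4. Replicate 3 had 1 region with 2 summits, at 10396180 with a fold of 3.31 (percentile 76.0) and at 10396986 with a fold of 4.78 (percentile 92.4). The first of these was 88 bp from the btl summit, and the second was 178 bp from the trh summit. The btl and trh summits were 540 bp apart, where the median over all 2415 trh regions that overlapped a btl region was 44 bp. By -log10 q the trh peak stood at percentile 32.2. With a window of 2 kb in place of 5 kb no member had a trh summit, against 19.5% of all genes, so the single trh count rests on this site. It was also the only one of the set in the authors' highest-confidence list, where the region from 10396736 to 10397693 has the bounds of the trh region. The share of all genes near a region of that list is not given here, so this count stands without a background.

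Extramacrochaetae, the inhibitor, had the most summits in replicate 3, and the lowest fold in both lists where it had peaks. In the btl list it had 2 summits, as did l(1)sc and da. It lies on 3L from 749400 to 753492 (Dmel_CG1007), inside the span of hng3. The btl list had a summit at 749355, 45 bp outside its lower-coordinate end, with a fold of 1.93 (percentile 9.38), and a summit at 751711, inside the gene, with a fold of 2.18 (percentile 18.6). By -log10 q these peaks stood higher, at percentiles 39.3 and 24.8. The first region was broad, 1897 bp, and covered 214 bp of the gene.

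Replicate 3 had 11 summits in 6 regions around emc. Only this list held regions with several summits, 3580 of its 10205 regions. Their folds were between 1.54 and 2.11, with a median of 1.79, and their percentiles between 2.35 and 36.2. One region, from 749395 to 752400 (3006 bp), held 6 of these summits and covered 3001 of the 4093 bp of the gene. Both btl regions overlapped replicate 3, with summits 271 and 130 bp apart. The trh list had no summit closer than 11266 bp. By fold, all btl summits at emc thus stood in the lower part of the list, while those at sc and l(1)sc stood above percentile 93. By -log10 q, the sc peak stood at percentile 78.4 and the l(1)sc peaks at 94.0 and 86.3.

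**Figure D3:**
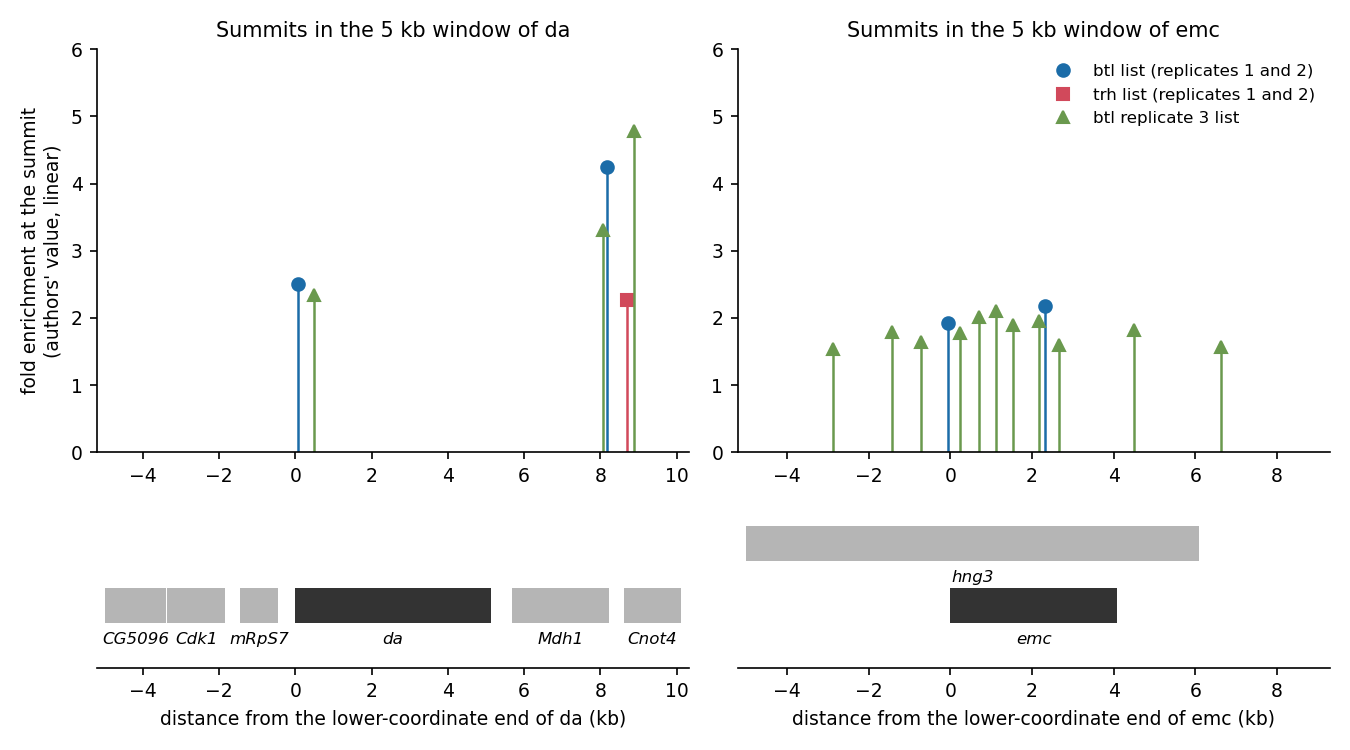
Summits within 5 kb of da (left) and emc (right); the horizontal axis is the distance in kb from the lower-coordinate end of each gene, stem height is the authors' fold enrichment (linear), and boxes are genes, dark for da and emc. At da the higher stems, 4.24 (btl), 2.26 (trh) and 4.78 (replicate 3), stand at Mdh1 and Cnot4; at emc all stems lie between 1.54 and 2.18.

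Taking the windows of the 8 genes together (97.1 kb), the lists held 7 btl, 1 trh and 16 replicate 3 summits, or 7.21, 1.03 and 16.5 per 100 kb. Over the windows of all protein-coding genes the densities were 7.26, 2.75 and 14.5. Of the replicate 3 summits 11 were at emc, and without the 4 achaete-scute genes the replicate 3 density was 27.3 per 100 kb. Of the 7 btl regions, 6 (85.7%, Wilson 95% interval 48.7 to 97.4%) overlapped a replicate 3 region, against 80.4% of all btl regions, the exception being sc. A trh region overlapped 1 of the 7 (14.3%, interval 2.57 to 51.3%), against 25.2% of all btl regions. A btl summit with no trh summit was found at 3 of the 8 genes, sc, l(1)sc and emc, and at 34.6% of all genes. In the other direction, 7 of the 10 replicate 3 regions (70.0%, interval 39.7 to 89.2%) overlapped a btl region, against 62.3%, and the 3 that did not were all at emc. These shares are near those of the whole lists. The intervals cover counting error only and treat regions as independent, though l(1)sc, da and emc held 2 btl regions each. The sc region entered the set through its lack of a peak in the other lists, so the btl shares partly describe how the set was chosen.

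The genes most like sc in pattern were found by the percentiles of the strongest summit within 5 kb in the 3 lists, with 0 for no summit, and the Euclidean distance over these 3 values. The nearest was CG5321 (X), with a btl fold of 5.50 (percentile 93.8) and a distance of 0.725. The next was CG30076 (2R), with 5.79 (percentile 95.3) and 2.16. The third place, at a distance of 2.23, was held jointly by CG14933 and its neighbours on 2L, which share 1 btl summit with a fold of 5.03 (percentile 90.9). None of them had a trh or replicate 3 summit within 5 kb. The btl region at CG5321 did overlap a replicate 3 region, with a summit 149 bp away that fell outside the window of the gene, while the regions at CG30076 and CG14933 overlapped neither list, as at sc. The likeness rests on the btl percentile alone, since both other values are 0.

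Genes around the proneural genes were counted by the same rule. Of 13 other neural or related bHLH genes, 8 had a btl summit, 1 a trh summit and 8 a replicate 3 summit. These shares of 61.5%, 7.69% and 61.5% stand beside 60.9%, 29.1% and 65.7% of all genes. The one with a summit in all 3 lists (7.69%, against 25.0% of all genes) was nautilus (nau), a myogenic gene. Its highest folds were 5.17 (btl, percentile 91.8), 2.08 (trh) and 2.93 (replicate 3). Those with a summit in no list (30.8%, against 26.8% of all genes) were cato, tap, Oli and dpn. The last of them encodes the neuroblast factor Deadpan.

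Of 13 genes that act with or downstream of proneural proteins, 8 had a btl, 5 a trh and 9 a replicate 3 summit. These shares of 61.5%, 38.5% and 69.2% stand near the 60.9%, 29.1% and 65.7% of all genes. The median length of these genes was 14770 bp, so their windows were far longer than those of the proneural genes. Summits in all 3 lists were found at 4 of them (30.8%, against 25.0% of all genes), insc, pros, cpo and chn. Their highest btl folds were 4.41 at insc, which orients neuroblast division, 3.43 at pros, a homeodomain factor of ganglion mother cells, 5.13 at cpo, an RNA-binding protein gene, and 3.97 at chn, a zinc-finger gene that promotes achaete-scute expression. The replicate 3 summit at chn, with a fold of 10.3, was among the highest of its list. Those with no summit were 3 (23.1%, against 26.8% of all genes), phyl, sca and scrt.

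Of 14 genes that act on proneural genes, 12 had a btl, 5 a trh and all 14 a replicate 3 summit. These shares of 85.7%, 35.7% and 100% stand beside 60.9%, 29.1% and 65.7% of all genes. Of these, 7 are neighbours that share sites, the E(spl) genes, which encode Notch-induced bHLH repressors, and gro, which encodes their corepressor. Their windows held 5 distinct btl, 1 trh and 25 replicate 3 summits, so they are not 7 separate counts. Summits in all 3 lists were found at 5 of them (35.7%, against 25.0% of all genes), ush, hry (hairy), E(spl)m7-HLH, E(spl)m8-HLH and gro. At ush, a cofactor of the prepattern factor Pannier, the highest folds were 6.51 (btl), 2.84 (trh) and 5.64 (replicate 3). At hry, a repressor of achaete, they were 5.08, 2.56 and 4.36 in the same lists. At E(spl)m7-HLH, E(spl)m8-HLH and gro the highest folds were the same for all 3 genes. They were 1.73 (btl, percentile 3.92), 1.70 (trh, percentile 11.9) and 8.81 (replicate 3, percentile 99.8). Each of these genes had 1 btl, 1 trh and 7 replicate 3 summits. The list had a median length of 5836 bp, and each of its genes had a summit in at least 1 list, where 26.8% of all genes had none. The plot of shares by gene list shows these counts.

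**Figure D4:**
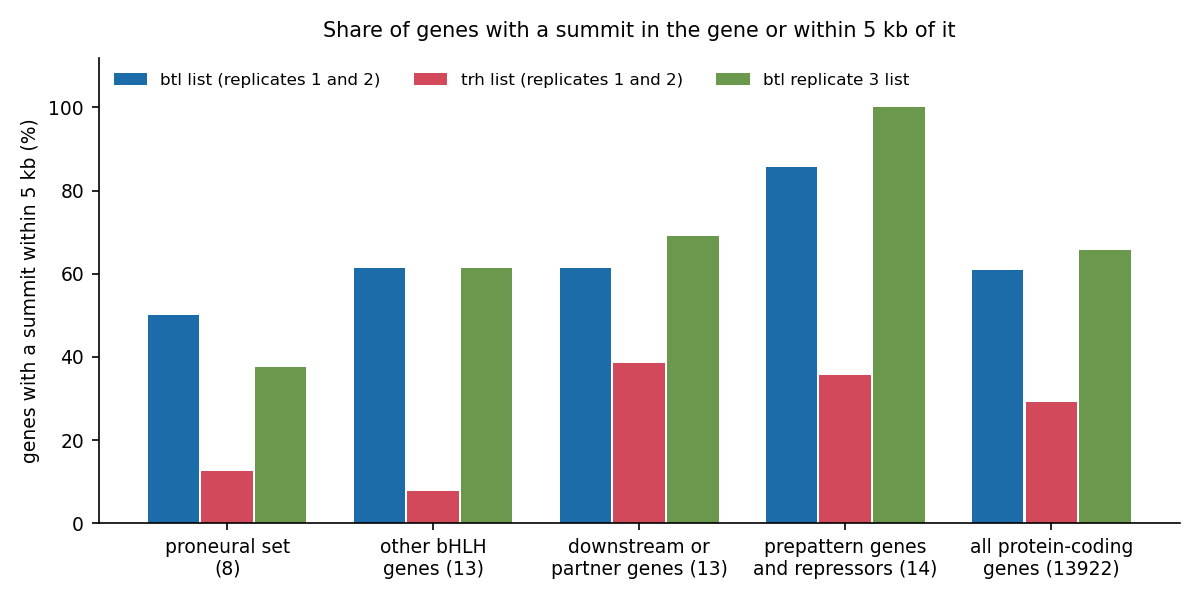
Share of genes with a summit in the body or within 5 kb (percent, bars from 0) in each peak list, for the 8 genes of the proneural set, 3 lists of related genes and all 13922 protein-coding genes. For the proneural set the bars are 50%, 12.5% and 37.5%, below the 60.9%, 29.1% and 65.7% of all genes; for 14 genes that act on proneural genes the replicate 3 bar is at 100%.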

How the data were processed

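Per the submitters' processing notes, CASAVA 1.8.2, Bowtie2 (2.3.4.3 and 2.3.4.1), SAMtools (1.9 and 1.7), Picard, MACS2 2.2.4 and bedtools were used, with build dm6 (Release 6), without their roles. Per the labels, reads were 50 bp single-end. The deposited files have no headers. Read by the narrowPeak layout, the authors' ratio column holds the fold enrichment at each summit and the authors' -log10 column the q-value of each peak. Per the labels, the btl and trh lists came from replicates 1 and 2 at an IDR (irreproducible discovery rate) of 0.1. The highest-confidence list holds positions only. Of the 17155 replicate 3 lines deposited, those off the arms were left out, which kept 17149.

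Summits were the region start plus the deposited offset, counted from 1, on 2L, 2R, 3L, 3R, 4 and X. Genes came from the RefSeq Release 6 table, which has no strand. All 8 members and 40 related genes matched by symbol (Delta and hry for Dl and h). Overlap meant at least 1 bp. The members, the gene lists and the rules were chosen with earlier results of these data known. All members are named, with neighbours at their summits, related genes in all or no lists, and the genes nearest to sc in pattern. The counting rules were tested on simulated data. The planned motif searches need sequence, which was not used here. Python 3.11.15, numpy 2.4.6, pandas 2.3.3 and scipy 1.17.1 were used.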

Additional observations from a re-analysis of the deposited data

How the results depend on the processing

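The members with a btl summit were 3 to 5 of 8 under the alternatives to the 5 kb window and the full list, against 4. For all genes the btl share was 45.5% with 2 kb windows, 75.2% with 10 kb windows and 26.7% within 500 bp of a gene end. It was 36% and 40.3% in the upper 50% by fold and by -log10 q. With the btl list shortened to the number of trh summits it was 28.2%. Under each of these last rules 37.5% of the members had a btl summit. No member had a trh summit, nor one in all 3 lists (0 of 8 each, against 1), with 2 kb windows, within 500 bp of a gene end, or in the upper 50% of each list by -log10 q. The trh shares of all genes were 19.5%, 8.32% and 16.7% under these rules, and the shares in all 3 lists 16.1%, 5.28% and 12.3%. The trh summit counted for da is 3580 bp from it and at percentile 32.2 by -log10 q. In the replicate 3 list 1 member (da) was left, against 3, when that list was shortened to the number of trh summits, where 31.1% of all genes had one. With 10 kb windows 4 members had a replicate 3 summit (50%, against 77.4% of all genes), with sc added. That sc summit was 9657 bp from the gene, at 407154, the site counted for l(1)sc, so the btl-only pattern of sc depends on the window. Of the 7 btl regions, 28.6% overlapped replicate 3 under a reciprocal overlap of 50% and 42.9% had summits within 100 bp, against 85.7%. Of all btl regions, 51.0% and 51.8% did so. The overlap of btl with trh regions was 0%, against 14.3%, under both of these rules, and 12.0% and 20.9% over all btl regions. For the single trh region, the overlap with btl and with replicate 3 was 0% under both, against 100%. Of all trh regions, 32.6% and 56.7% met these rules with btl, against 75.2% by any overlap. With replicate 3, 16.5% and 42.2% of all trh regions did so, against 80.5%. The trh density was 0 per 100 kb with 2 kb windows, 0.591 with 10 kb windows and 1.95 without the 4 achaete-scute genes, against 1.03, all resting on 1 summit or none. The replicate 3 density was 27.3 without these 4 genes, against 16.5. Ranking by -log10 q put sc at percentile 78.4 in place of 93.1 and the stronger l(1)sc peak at 94.0 in place of 98.7. No paired analysis was possible because the btl and trh lists do not separate their replicates and only btl replicate 3 has a list of its own. Depth is unknown, and whether the absence of sc from 2 of the lists reflects occupancy, depth or threshold was not tested.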

Other observations

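Of the 40 related genes, 6 had a summit within 5 kb in 1 list alone, and were singled out after their values were seen. At sens, a zinc-finger gene switched on by proneural proteins in sensory organ precursors, it was the trh list, with a fold of 1.95 (percentile 32.6). This was 2.5% of the 40, against 1.29% of all genes. At dimm, a bHLH gene of neuroendocrine cells, it was the btl list, with 2 summits and a highest fold of 3.11 (percentile 59.1). That was 2.5% of the 40, against 5% of all genes. At 4 genes it was the replicate 3 list (10% of the 40, against 9.56% of all genes), with highest folds of 5.42 at Fer2, 3.35 at rho, 2.92 at pnr and 1.73 at vnd.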
